A study of Mus musculus with 16 samples.

Results

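The genes of MHC class II antigen presentation were followed through RNA sequencing of mouse peripheral blood mononuclear cells. They were chosen by symbol: the 10 rows of the deposited table named H2-Aa, H2-Ab1, H2-Eb1, Cd74, Ciita, H2-DMa, H2-DMb1, H2-DMb2, H2-Oa and H2-Ob, of 51179 genes listed. All 10 were found, and all 10 passed the filter of at least 1 TPM in at least 5 libraries, as 16365 genes did. TPM, transcripts per 1000000, is a share of a library's RNA corrected for gene length.

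The 16 libraries came from C57BL/6N mice in 3 groups. In the HFD+L-NAME+NO2-OA group (n = 6, called NO2-OA libraries below), mice ate a high-fat diet (HFD) for 15 weeks together with L-NAME, which blocks nitric oxide synthase. They were also given NO2-OA, a nitrated oleic acid, during the final 4 weeks. The HFD+L-NAME group (n = 5) had the diet and inhibitor alone, as a model of heart failure with preserved ejection fraction, and the chow group (n = 5) had ordinary feed. No age, sex or dose is given in the labels used here, and nothing states that each library is 1 mouse, so p-values measure the spread between these libraries. The cells were separated from blood by density gradient, freed of red cells, frozen and thawed before random-primed sequencing of total RNA.

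MHC class II molecules sit on B cells, dendritic cells, monocytes and macrophages and show peptides from outside the cell to CD4+ T cells. H2-Aa and H2-Ab1 encode the alpha and beta chain of I-A, and H2-Eb1 encodes the beta chain of I-E. Cd74 encodes the invariant chain, which fills the groove until it is degraded. H2-DMa with H2-DMb1 or H2-DMb2 forms H2-M, which exchanges the last invariant chain fragment for a peptide, and H2-Oa with H2-Ob forms H2-O, which inhibits H2-M. Ciita encodes the coactivator on which transcription of the class II genes depends. It does not bind DNA itself but joins a complex of RFX, which holds the X box of their promoters, and NF-Y, which holds the Y box.

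These promoter elements are shown as background, and their part in the levels that follow was not tested. RefSeq promoter windows of build GRCm38.p6, which run from 250 bases before to 50 bases after a start, were found for 7 of the 10 genes. They covered H2-Aa, H2-Eb1, H2-DMa (with a pair of starts), H2-DMb1, H2-DMb2, H2-Oa and H2-Ob, all on chromosome 17. The Y box core searched was GATTGG and the X box core AACNNATGA, both on either strand and not overlapping each other. The letters of the X core were chosen after these sequences were seen. The stretches below run 5′ to 3′ on the gene's strand, from 130 to 36 bases before the start, with matches in capitals, first the 4 genes with both cores and then 2 with the Y core alone.
H2-Eb1 (chr17:34305737-34305831, plus strand): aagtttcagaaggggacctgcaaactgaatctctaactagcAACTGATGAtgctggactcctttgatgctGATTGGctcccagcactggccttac
H2-DMb1 (chr17:34153061-34153155, plus strand): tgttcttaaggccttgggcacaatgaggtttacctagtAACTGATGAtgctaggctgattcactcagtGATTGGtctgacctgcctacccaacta
H2-DMb2 (chr17:34145119-34145213, plus strand): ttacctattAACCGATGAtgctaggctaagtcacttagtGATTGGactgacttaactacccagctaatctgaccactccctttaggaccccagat
H2-Ob (chr17:34238775-34238869, plus strand): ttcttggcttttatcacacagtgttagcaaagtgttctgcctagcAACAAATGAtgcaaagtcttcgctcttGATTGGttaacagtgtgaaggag
H2-Aa (chr17:34287859-34287953, minus strand): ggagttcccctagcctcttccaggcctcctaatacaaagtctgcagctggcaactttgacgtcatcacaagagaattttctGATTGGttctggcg
H2-Oa (chr17:34092249-34092343, plus strand): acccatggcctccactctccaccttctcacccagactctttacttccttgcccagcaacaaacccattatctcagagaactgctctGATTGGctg

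GATTGG was present in a window of all 7 genes and in 16.1% of all 32851 promoter windows. AACNNATGA was present in 4 of the 7 genes and in 2.85% of all windows. In H2-Eb1, H2-DMb1, H2-DMb2 and H2-Ob the X core stood before the Y core on the gene's strand with 20, 21, 21 and 18 bases between them. That arrangement, with 10 to 30 bases between the cores, was present in 9 windows in all, or 0.0274%. The other 5 windows belonged to BC051142, Casp8, Dnah6, Gm34733 and Tnfrsf9. The windows of H2-Aa, H2-Oa and H2-DMa did not hold these X letters. Because the X letters were chosen after these sequences were seen, the counts of the X core and of the arrangement were shaped by that choice and test nothing. The arrangement is a description of sequence, and binding was not measured.

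Read numbers recovered from the deposited values were lowest at 4940252 (HFD+L-NAME replicate 5) and highest at 25477492 (NO2-OA replicate 1). Library numbers fall into a pair of runs, here called run 1 (11 libraries) and run 2 (NO2-OA replicate 2, HFD+L-NAME replicates 1 and 5, chow replicates 1 and 2). The labels do not say what the runs stand for. The 4 run 2 libraries of HFD+L-NAME and chow carried genes of resident peritoneal macrophages: Alox15 ran from 86.0 to 175 TPM in them and reached no more than 1.24 TPM in the other 12. C1qa and Prg4 were highest in the same 4 libraries, and the NO2-OA group has none of them. In NO2-OA replicate 2, HFD+L-NAME replicate 5 and chow replicate 3, protein-coding genes made up 15.9%, 15.1% and 22.1% of TPM, against 39.1% to 56.4% in the other libraries. PBMC markers were present: B cell markers summed to between 877 and 5709 TPM and monocyte markers to between 544 and 2542 TPM. Conventional dendritic cell markers summed to at most 41.1 TPM, and plasmacytoid dendritic cell markers to at most 3.74 TPM.

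The invariant chain gene stood far above all other members, and the order of the genes was nearly the same in every library. Over the 16 libraries Cd74 averaged 2133 ± 980 TPM (SD, n = 16), which was 4.61-fold the level of H2-Ab1 (range over libraries 4.09 to 5.45). The chain genes came next, with H2-Ab1 at 463 ± 216 TPM, H2-Eb1 at 408 ± 186 TPM and H2-Aa at 314 ± 150 TPM. H2-Ab1 lay above H2-Eb1 in 13 of 16 libraries, and H2-Eb1 lay above H2-Aa in 16 of 16. The H2-M beta chains followed, with H2-DMb2 at 213 ± 100 TPM and H2-DMb1 at 123 ± 56.8 TPM. Their alpha chain H2-DMa averaged 31.8 ± 15.7 TPM, and H2-DMb2 was 6.39-fold above it (range 5.23 to 8.00). H2-Ob averaged 85.8 ± 37.7 TPM and was 2.68-fold above its partner H2-Oa, at 32.1 ± 18.1 TPM (range of the fold 1.78 to 3.63). Ciita averaged 35.0 ± 17.01 TPM. The 3 lowest members could not be ordered: Ciita lay above H2-Oa in 10 of 16 libraries and H2-Oa above H2-DMa in 8 of 16. Of the other class II genes, H2-Eb2, a second I-E beta gene, averaged 12.4 TPM. H2-Ea, the I-E alpha gene, is known to be disrupted in C57BL/6 mice, and it averaged 0.195 TPM with 0 reads in 6 of 16 libraries.

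**Figure D1:**
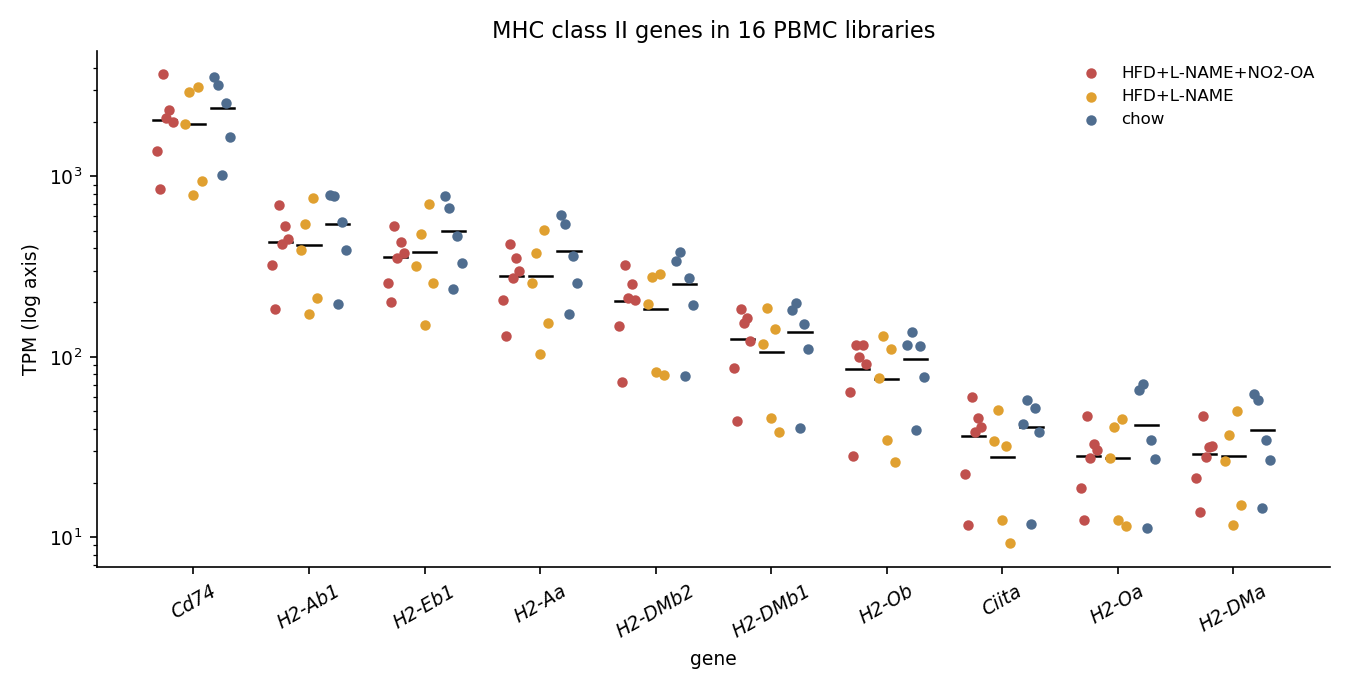
Level of each gene in TPM (log axis) in every library, with HFD+L-NAME+NO2-OA, HFD+L-NAME and chow from left to right within each gene and a bar at the group mean. Cd74 lies highest, H2-DMa, H2-Oa and Ciita lie together at the bottom, and the ranges of the groups overlap for all 10 genes.

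Levels of the members varied several-fold between libraries of the same group, and they did so together. Cd74 ranged from 847 to 3688 TPM in the NO2-OA libraries, with a median of 2059 TPM. It was 1945, 2955, 789, 3115 and 948 TPM in HFD+L-NAME replicates 1 to 5, and 3548, 3216, 1015, 2560 and 1660 TPM in chow replicates 1 to 5. Each group thus held libraries of low and of high level, and the groups overlapped. H2-Aa had its lowest, median and highest values at 130, 287 and 423 TPM in the NO2-OA libraries. It was 256, 377, 103, 505 and 153 TPM in the HFD+L-NAME libraries and 607, 543, 173, 361 and 255 TPM in the chow libraries, in replicate order. The low values came from the same libraries as those of Cd74: replicate 2 of NO2-OA, replicates 3 and 5 of HFD+L-NAME and replicate 3 of chow. For all 10 members these 4 libraries were the 4 lowest in TPM. The highest TPM was in chow replicate 1 for 4 members, in chow replicate 2 for 4 and in NO2-OA replicate 3 for 2. Both of these chow libraries are among those with macrophage genes, whose part in the levels was not tested.

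How low a library stood depended on the scale. The 10 genes summed to 1543 TPM in NO2-OA replicate 2, 1748 TPM in HFD+L-NAME replicate 5, 1414 TPM in HFD+L-NAME replicate 3 and 1816 TPM in chow replicate 3, against 2535 to 6533 TPM in the other libraries. On the scale of reads per 1000000 recovered reads (RPM), which is not corrected for length, the same sums were 4568, 5833, 1963 and 4181. Only HFD+L-NAME replicate 3 was then the lowest library for 10 of 10 members, and the sums of the other 15 ran from 4181 to 8071 RPM. The other 3 libraries are those with the low protein-coding share. HFD+L-NAME replicate 3 had a protein-coding share of 49.8%, the lowest level of the B cell gene Cd79a (133 TPM) and the highest of the platelet gene Ppbp (17640 TPM). Within the protein-coding TPM, the 10 genes made up 0.888% ± 0.300 in NO2-OA libraries (n = 6), 0.941% ± 0.409 in HFD+L-NAME libraries and 1.15% ± 0.402 in chow libraries (SD, n = 5 each). Haemoglobin genes, which count among the protein-coding genes, made up 1.10% to 30.7% of TPM in NO2-OA libraries. They made up 0.882% to 11.7% in HFD+L-NAME and 0.141% to 7.67% in chow libraries, and their part in these shares was not tested.

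**Figure D2:**
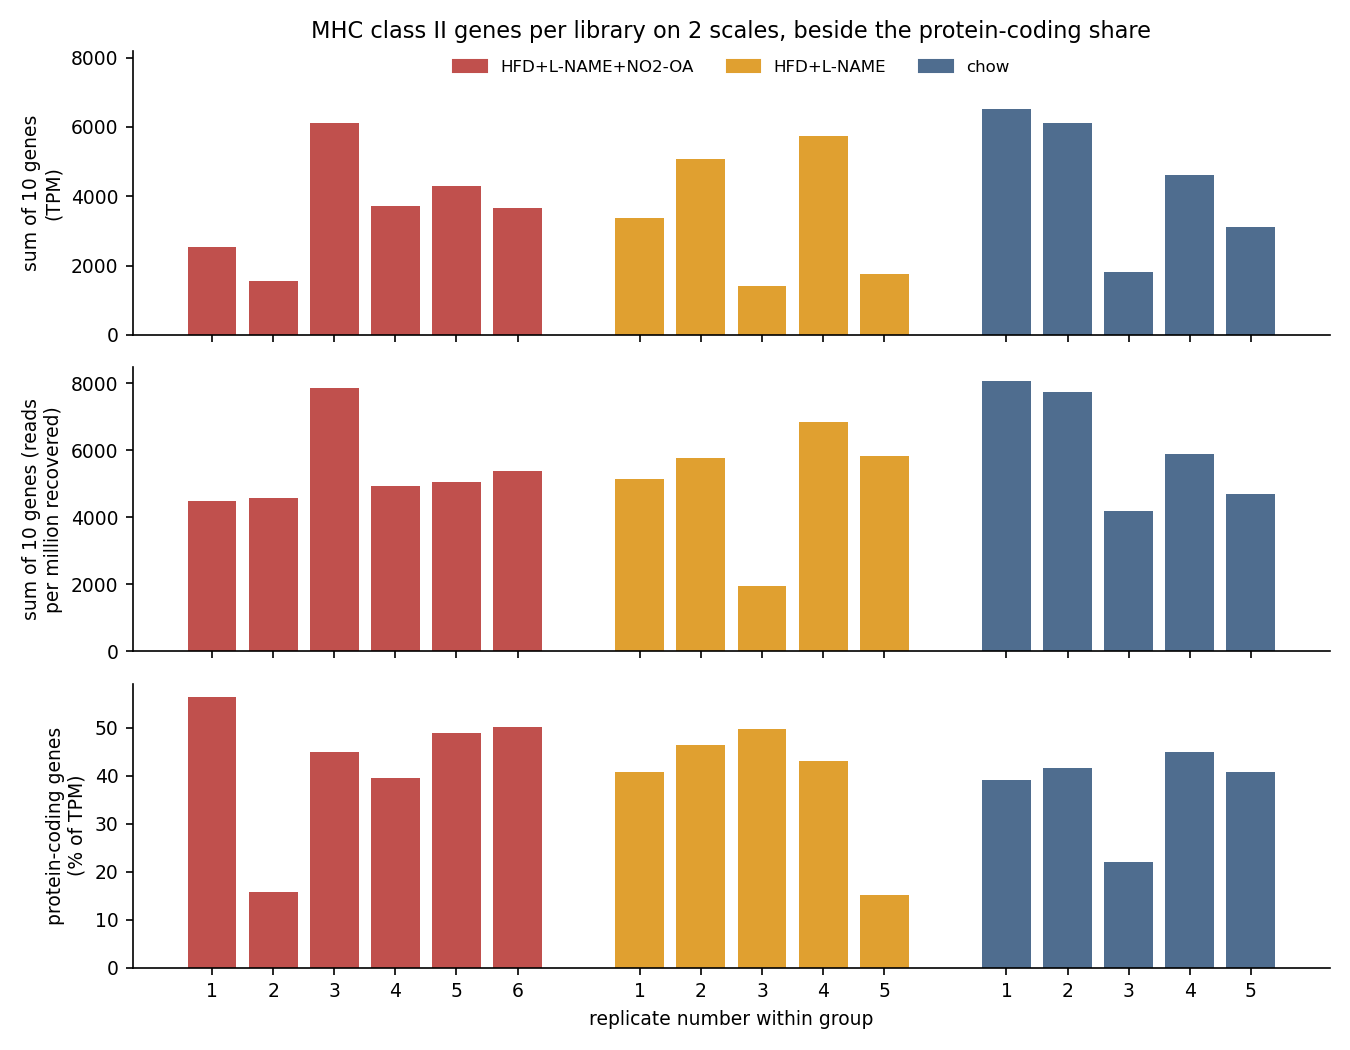
Sum of the 10 genes per library in TPM (top) and in RPM, reads per 1000000 recovered reads (middle), with the share of protein-coding genes in TPM (bottom), for HFD+L-NAME+NO2-OA, HFD+L-NAME and chow from left to right. HFD+L-NAME replicate 3 is low on both scales, at 1414 TPM and 1963 RPM, while NO2-OA replicate 2, HFD+L-NAME replicate 5 and chow replicate 3 stand lowest in the bottom panel.

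The first comparison asks whether the diet and inhibitor changed class II expression in blood. No member passed: a linear model fitted with limma on log2(TPM + 1) with Benjamini-Hochberg adjustment called 0 of 10 members in HFD+L-NAME against chow, and 0.00611% of all tested genes (1 gene, the gene model Gm23054, down). Without adjustment 0 members and 2.93% of all tested genes had p under 0.05, and limma-voom on the recovered reads also called 0 members. All 10 log2 differences were below 0, with a median of -0.48 beside -0.29 for all tested genes, of which 82.1% were below 0. With median-of-ratios scaling the median was -0.072 for the members and 0.027 for all tested genes, of which 44.9% were below 0, and Cd74 lay above 0, at 0.037. All 10 stayed below 0 with scaling to protein-coding genes (median -0.45, all tested genes -0.27). They also did so with haemoglobin genes left out of the total (median -0.45, all tested genes -0.27). Relative to the median of all tested genes in the unscaled fit, the members lay between -0.32 and -0.087. In run 1 alone, however, 9 of the 10 were above 0 with a median of 0.23. Of all tested genes 27.1% were then below 0, with a median of 0.13. The same 3 against 3 libraries remain when those with macrophage genes are left out. In run 2, where all 4 libraries carried macrophage genes, the mean log2 differences of 2 HFD+L-NAME from 2 chow libraries ran from -1.86 to -1.31. The sign of this comparison in TPM therefore differed between the runs for 9 members. HFD+L-NAME replicate 5, in run 2, is among the libraries of low protein-coding share. In RPM the 10 genes summed to 5128 and 5833 in the HFD+L-NAME libraries of run 2, against 8071 and 7745 in its chow libraries. In run 1 the sums were 5763, 1963 and 6851 RPM in HFD+L-NAME libraries, against 4181, 5871 and 4690 RPM in chow libraries. Chow replicate 3, also of low protein-coding share, is in run 1. Differences in RPM were not fitted within a run. Without the 3 libraries of low protein-coding share all 10 members were below 0 (median -0.59, all tested genes -0.27, of which 78.6% were below 0). The part of the protein-coding share in the run 2 differences was not tested.

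Among the I-A and I-E chains, H2-Aa averaged 279 ± 164 TPM in HFD+L-NAME and 388 ± 185 TPM in chow libraries (SD, n = 5 each). Its log2 difference was -0.55 ± 0.50 (SE; 95% interval -1.57 to 0.47; limma adjusted p = 0.816). H2-Ab1 averaged 415 ± 243 TPM in HFD+L-NAME and 544 ± 256 TPM in chow libraries, with a log2 difference of -0.43 ± 0.51. For H2-Eb1 the means were 382 ± 216 TPM in HFD+L-NAME and 495 ± 225 TPM in chow libraries, a log2 difference of -0.44 ± 0.48. The interval of each of these 3 genes includes both 0 and a halving. Cd74 had the smallest difference, at -0.38 ± 0.54 (1951 ± 1086 TPM in HFD+L-NAME, 2400 ± 1057 TPM in chow libraries). Ciita had the largest, at -0.61 ± 0.51 (limma adjusted p = 0.816). Single libraries moved these values by more than 1.5 times. H2-Aa was at -0.25 without HFD+L-NAME replicate 3 and Cd74 at -0.10 without the same library, while Ciita was at -0.30 without HFD+L-NAME replicate 5.

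Single Ciita values were 34.3, 50.6, 12.4, 32.1 and 9.23 TPM in HFD+L-NAME replicates 1 to 5. They were 42.3, 57.9, 11.9, 52.2 and 38.4 TPM in chow replicates 1 to 5. The pair of lowest HFD+L-NAME libraries and 1 chow library lay together, and the rest of both groups overlapped between 32.1 and 57.9 TPM. The H2-M and H2-O genes had log2 differences from -0.53 (H2-Oa) to -0.42 (H2-DMb1). H2-Oa averaged 27.4 ± 15.5 TPM in HFD+L-NAME and 41.6 ± 25.3 TPM in chow libraries, where replicates 1 and 2 stood apart at 65.0 and 70.5 TPM. H2-DMa averaged 28.9 ± 11.1 TPM in NO2-OA, 28.0 ± 15.9 TPM in HFD+L-NAME and 39.1 ± 20.4 TPM in chow libraries. H2-DMb2 averaged 203 ± 85.9 TPM in NO2-OA, 185 ± 102 TPM in HFD+L-NAME and 253 ± 122 TPM in chow libraries. H2-Ob averaged 85.7 ± 34.2 TPM in NO2-OA, 75.2 ± 45.4 TPM in HFD+L-NAME and 96.6 ± 38.9 TPM in chow libraries. For no member did the ranges of the groups lie apart, against 0.11% of all tested genes, and only 1 or 2 of 5 HFD+L-NAME libraries lay above the chow median of a member.

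The second comparison asks what NO2-OA added to the regimen. Here limma called 0 of 10 members and 0.00611% of all tested genes (1 gene, the gene model Gm25131, up), with adjusted p of 1.00 for each member. Without adjustment 0 members and 0.947% of all tested genes had p under 0.05, and limma-voom called 0 members. Of all tested genes 35.3% had a log2 difference below 0, with a median of 0.084. The members' log2 differences of NO2-OA from HFD+L-NAME libraries were all above 0, with a median of 0.16. They turned below 0 for 6 members with median-of-ratios scaling (median -0.012, all tested genes -0.036) and for 3 with scaling to protein-coding genes, and for 8 members without the libraries that carry macrophage genes. Ciita had the largest difference, at 0.46 ± 0.49 (95% interval -0.53 to 1.46; 36.5 ± 17.2 TPM in NO2-OA, 27.7 ± 17.03 TPM in HFD+L-NAME libraries). Ciita stayed above 0 under each of those 3 alternatives, as did H2-DMb1. H2-DMb1 was next, at 0.36 ± 0.50 (126 ± 52.8 TPM in NO2-OA, 106 ± 63.2 TPM in HFD+L-NAME libraries), and H2-Ob followed at 0.30 ± 0.48. H2-Eb1 had the smallest, at 0.028 ± 0.46 (358 ± 119 TPM in NO2-OA, 382 ± 216 TPM in HFD+L-NAME libraries). No member's ranges lay apart, against 0.0367% of all tested genes. Without HFD+L-NAME replicate 3, the library lowest on both scales, H2-Aa had a log2 difference of -0.16 and H2-Eb1 one of -0.26. Without the 3 libraries of low protein-coding share all 10 were above 0 (median 0.19, all tested genes 0.019, of which 46.3% were below 0).

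In NO2-OA against chow, limma again called 0 of 10 members, and 0% of all tested genes. Without adjustment 0 members and 2.80% of tested genes had p under 0.05, and limma-voom called 0 members. All 10 log2 differences were below 0 (median -0.27, all tested genes -0.20), beside 82.7% of all tested genes. Those of the members ran from -0.067 ± 0.50 for H2-DMb1 to -0.41 ± 0.47 for H2-Aa, with limma adjusted p from 0.977 to 0.989. H2-DMb1 lay above 0 with limma-voom, at 0.047, and with haemoglobin genes left out of the total, at 0.063. H2-Aa averaged 281 ± 104 TPM in NO2-OA libraries (n = 6) and 388 ± 185 TPM in chow libraries (n = 5). Cd74 averaged 2063 ± 965 TPM in NO2-OA and 2400 ± 1057 TPM in chow libraries. All 10 were above 0 in run 1 alone (5 against 3 libraries), with a median of 0.43, beside a median of 0.12 for all tested genes. All 10 were also above 0 without the libraries that carry macrophage genes, with a median of 0.19, beside 0.0062 for all tested genes. Of all tested genes 29.5% and 48.5% were below 0 in these fits. Both fits keep chow replicate 3, of low protein-coding share, among their 3 chow libraries. In run 1 alone no NO2-OA library of low share remains. There the 10 genes summed to 4483, 7859, 4925, 5054 and 5373 RPM in NO2-OA libraries, against 4181, 5871 and 4690 RPM in chow libraries. Without the 3 libraries of low protein-coding share all 10 were below 0 (median -0.37, all tested genes -0.24, of which 81.6% were below 0). With median-of-ratios scaling the median was -0.031 (all tested genes -0.0054) and 4 members were above 0. This comparison and the first share the chow libraries, and this comparison and the second share the NO2-OA libraries. No member's ranges lay apart, against 0.275% of all tested genes.

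**Figure D3:**
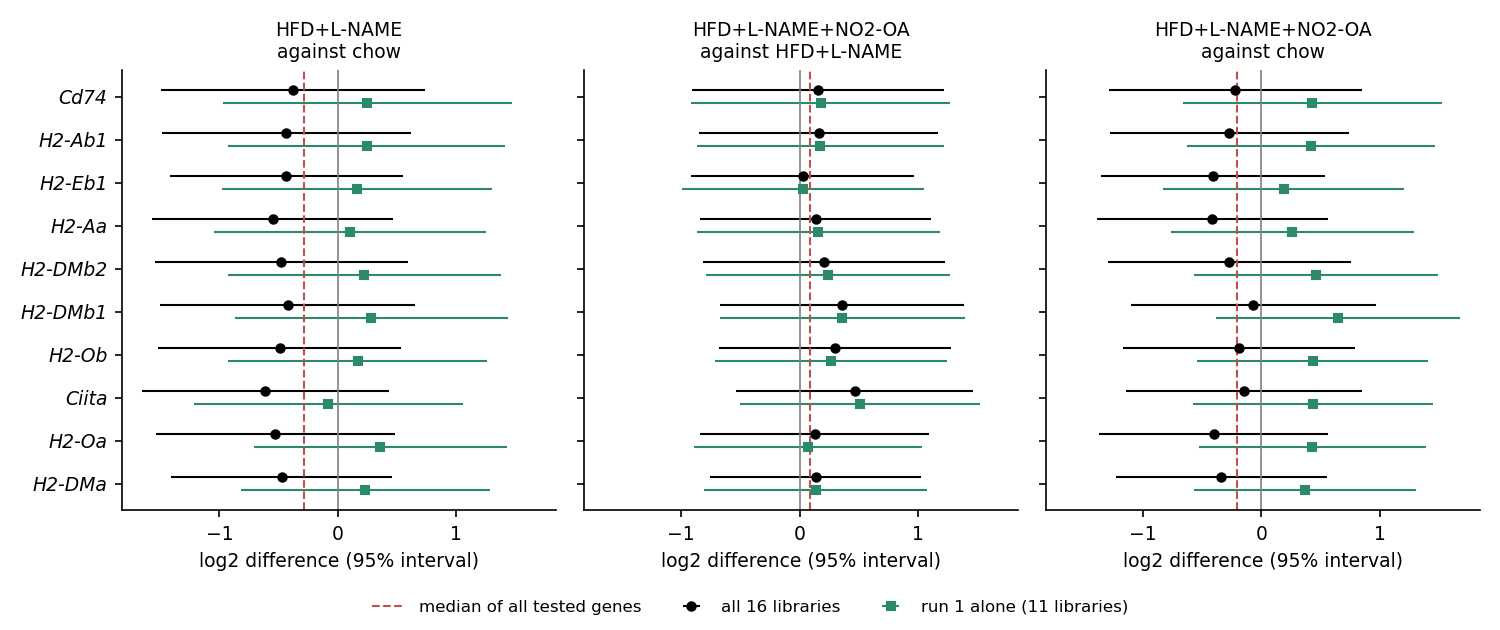
Log2 difference of each gene on the log2(TPM + 1) scale with its 95% interval, in 3 panels: HFD+L-NAME against chow, NO2-OA against HFD+L-NAME, and NO2-OA against chow. Black points use all 16 libraries and green squares run 1 alone; the dashed line is the median of all tested genes with all libraries. Every interval spans 0, and the points of both comparisons with chow lie on the other side of 0 in run 1, except Ciita in HFD+L-NAME against chow.

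Plain ratios between single genes within a library do not move with a factor that both genes share. The tests and log2 ratios here use TPM + 1, so for low genes such a factor is removed only in part. Of 21 exact two-sided permutation tests (7 ratios in 3 comparisons), 1 had an unadjusted p under 0.05 and 0 passed after Benjamini-Hochberg adjustment. The design fixed this in part: the smallest p that 6 against 5 libraries allow, 0.00433, adjusts to 0.0909 when 1 of 21 tests reaches it, so no ratio could pass alone. That ratio was H2-DMb2 over H2-DMb1, the alternative beta chains of H2-M. It was 1.71, 1.63, 1.74, 1.38, 1.55 and 1.70 in NO2-OA replicates 1 to 6, against 1.87, 1.93, 1.94, 1.81 and 1.75 in chow replicates 1 to 5. The highest NO2-OA library and the lowest chow library were thus close to each other but did not overlap. In HFD+L-NAME libraries the ratio was 1.67, 1.497, 1.79, 2.03 and 2.07, spanning both other groups. The mean log2 ratio was 0.68 ± 0.13 in NO2-OA libraries and 0.89 ± 0.060 in chow libraries (SD, n = 6 and 5). The difference of -0.20 had this smallest exact permutation p of 0.00433 and an adjusted p of 0.0909. It was -0.18 in run 1 alone. H2-DMb1 and H2-DMb2 are near-identical copies, and how reads were divided between them is not given in the sources used here, so both levels and their ratio are uncertain.

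The ratio of Cd74 to H2-Aa set the invariant chain against an I-A chain. It ranged from 6.52 to 8.72 in NO2-OA libraries, was 7.61, 7.84, 7.63, 6.17 and 6.19 in HFD+L-NAME libraries and 5.84, 5.93, 5.87, 7.08 and 6.51 in chow libraries. NO2-OA libraries were above the chow median in 6 of 6 cases, with a log2 difference of 0.19 (exact permutation p = 0.0519, adjusted p = 0.545). HFD+L-NAME libraries were above it in 5 of 5 cases, with a log2 difference of 0.18 (exact permutation p = 0.0794, adjusted p = 0.556). Neither passed, and both share the same chow libraries. The ratio of H2-Aa to Cd79a, which encodes part of the B cell receptor, averaged -0.077 ± 0.17 on the log2 scale in NO2-OA, -0.24 ± 0.34 in HFD+L-NAME and -0.079 ± 0.31 in chow libraries. No test of it passed (smallest exact permutation p = 0.333, NO2-OA against HFD+L-NAME).

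Other ratios varied between libraries rather than between groups. Ciita over H2-Aa spanned 2.502-fold over the 16 libraries, the widest of the 7. It was 0.0900 in NO2-OA replicate 2, 0.0636 and 0.0603 in HFD+L-NAME replicates 4 and 5, and 0.0697 and 0.0686 in chow replicates 1 and 3. The other 11 libraries lay between 0.107 and 0.151. The 3 libraries with a low protein-coding share were all among these 5. H2-Ob over H2-DMa, an H2-O chain against an H2-M chain, spanned 2.12-fold. Its 4 lowest values were 1.73 in HFD+L-NAME replicate 5, 1.85 in chow replicate 1, 2.05 in NO2-OA replicate 2 and 2.18 in HFD+L-NAME replicate 4, and its highest was 3.67 in NO2-OA replicate 5. In the 4 libraries with macrophage genes it had a median of 2.12 (range 1.73 to 2.86), against 2.91 (2.05 to 3.67) in the other 12. The part of macrophage RNA and of the protein-coding share in these ratios was not tested.

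**Figure D4:**
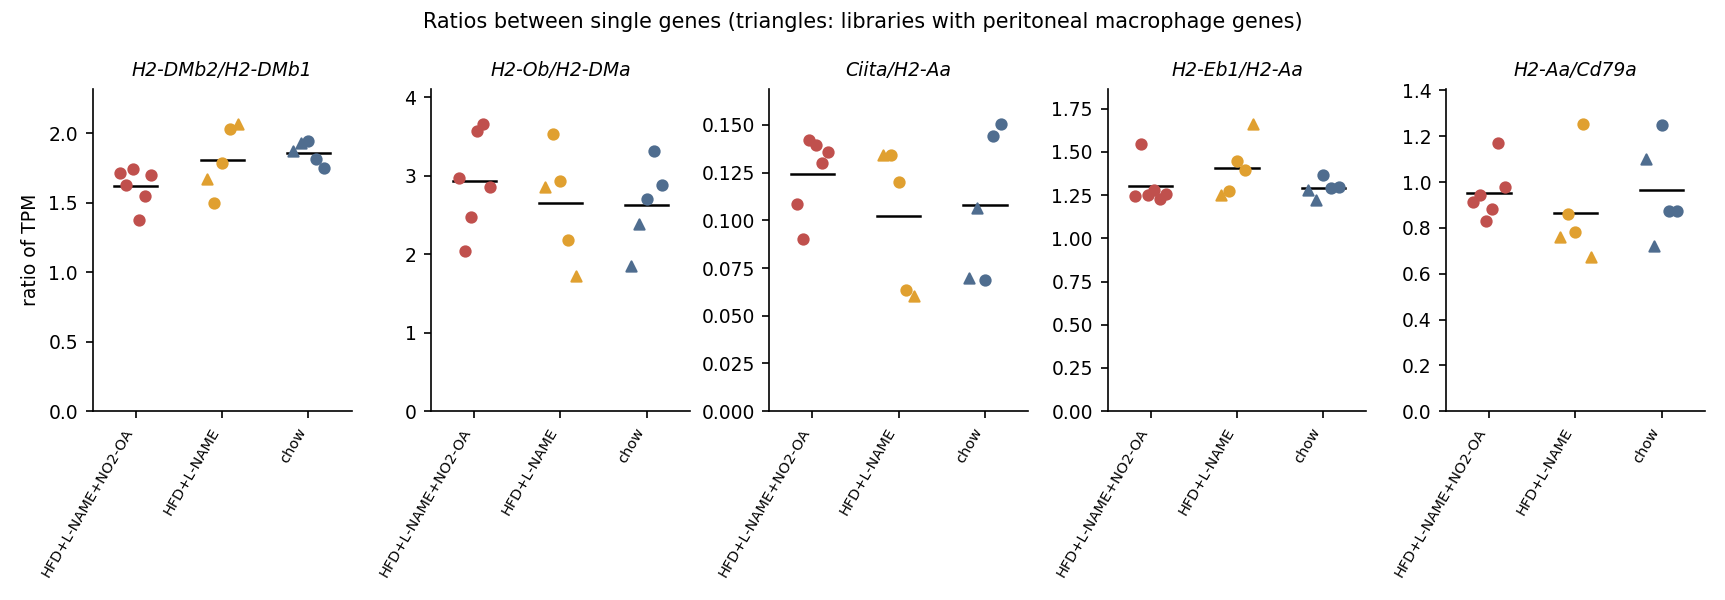
Ratio of TPM between genes in each library for HFD+L-NAME+NO2-OA, HFD+L-NAME and chow, from left to right in each panel, with a bar at the group mean; triangles mark the 4 libraries with peritoneal macrophage genes. H2-DMb2 over H2-DMb1 is the only panel in which NO2-OA and chow libraries do not overlap (at most 1.74 against at least 1.75).

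The members followed each other closely. Pearson r of log2(TPM + 1) between 2 members over 16 libraries ran from 0.798 to 0.990 over 45 pairs, with a median of 0.959. Libraries with a low protein-coding share are low for all members in TPM, and in RPM the same pairs ran from 0.486 (H2-Eb1 with Ciita) to 0.981 (H2-Ab1 with H2-DMa), with a median of 0.891. High r was common in the whole table too: the median r of all tested genes with the B cell gene Cd79a was 0.69 in TPM and 0.45 in RPM. Psmc4 and Rpl15, which are not class II genes, reached 0.980 and 0.978 with H2-Aa in TPM. All points share the library's composition, so these values are descriptions.

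Class II genes in blood can come from several cell types, and each member was set against 1 marker of each of 3. In bulk RNA, fewer cells of a type and less RNA per cell cannot be told apart. With Cd79a, of B cells, Pearson r of log2(TPM + 1) lay between 0.868 (Ciita) and 0.955 (H2-Oa) and Spearman's rho between 0.818 and 0.944 over 16 libraries. The largest permutation adjusted p was 9e-05 for r and 0.00081 for rho, over the 30 relations computed. Such relations were common: 10 of 10 members and 70.5% of all tested genes had an unadjusted permutation p of r under 0.05 (10000 permutations), and the median r was 0.94 for the members and 0.69 for all tested genes. An r at or above that of the lowest member was reached by 14.2% of all tested genes. Without the 2 libraries farthest from the Cd79a median r lay between 0.848 and 0.947, in run 1 alone between 0.913 and 0.981, and as deviations from the group means between 0.882 and 0.955. In RPM it lay between 0.663 and 0.910, with a median of 0.87 for the members and 0.45 for all tested genes. The lowest member's r in RPM was reached by 24.5% of all tested genes.

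With Csf1r, the receptor of macrophage colony-stimulating factor on monocytes and macrophages, r lay between 0.713 and 0.843 and rho between 0.597 and 0.80. The largest permutation adjusted p was 0.0025 for r and 0.0169 for rho, and 10 of 10 members and 62.4% of all tested genes had an unadjusted permutation p of r under 0.05. An r at or above that of the lowest member was reached by 23.9% of all tested genes in TPM and 59.2% in RPM. Without the 2 farthest libraries r was 0.546 to 0.773, in run 1 alone 0.771 to 0.878, and in RPM 0.292 to 0.673. With Flt3, a receptor of dendritic cells and progenitors, r lay between 0.684 and 0.795 and rho between 0.591 and 0.753 (largest permutation adjusted p 0.0039 for r and 0.0178 for rho). An unadjusted permutation p of r under 0.05 was found for 10 of 10 members and 65.3% of all tested genes. For Flt3 34.8% of all tested genes in TPM and 44.6% in RPM had an r at or above that of the lowest member. Without the 2 farthest libraries r was 0.507 to 0.683, in run 1 alone 0.644 to 0.745, and in RPM 0.403 to 0.597. The differences between the markers were not tested. Flt3 itself lay between 1.16 and 4.08 TPM, and Xcr1, of cross-presenting dendritic cells, was listed at no more than 0.274 TPM.

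**Figure D5:**
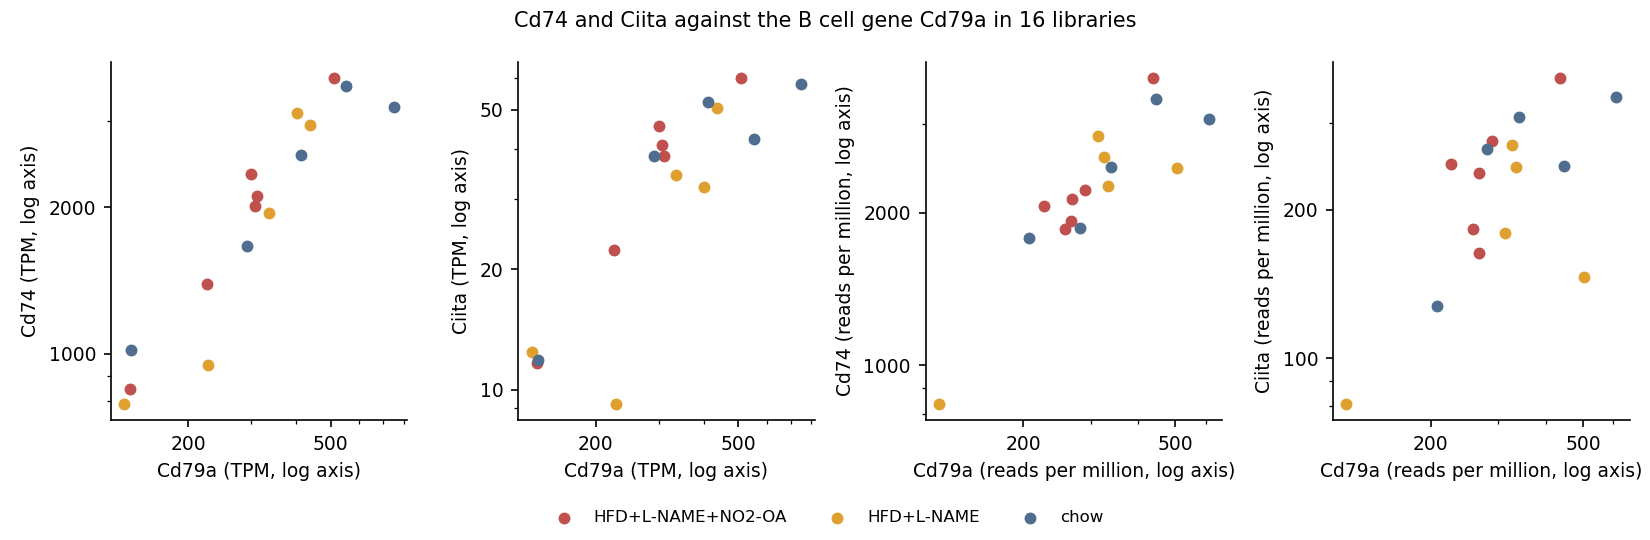
Cd74 and Ciita against the B cell gene Cd79a in 16 libraries, in TPM (left pair of panels) and in RPM (right pair), all axes logarithmic and points coloured by group. In TPM 3 libraries of low protein-coding share and HFD+L-NAME replicate 3 form the lower end for Ciita; in RPM r was 0.883 for Cd74 and 0.663 for Ciita.

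The 10 genes most like H2-Aa, among 4914 named genes with a mean of at least 10 TPM, had Pearson r of log2(TPM + 1) between 0.973 and 0.986 over 16 libraries. Fcrl1, a receptor-like molecule of B cells, led at 0.986, and Cd72, a B cell co-receptor, was next at 0.983. Psmc4, Yeats4, Rpl15, Usp1, Exosc3, Sumo2, Rpl11 and Rpl7 followed. The 10 most like Ciita had r between 0.980 and 0.986. They were led by Rcsd1 at 0.986 and included Ccr6, a chemokine receptor, at 0.983 and Btla, an inhibitory receptor of lymphocytes, at 0.983. Marchf1, a ubiquitin ligase that removes class II molecules from the cell surface, was among them at 0.981. Cacna1i, Zfp831, Trim35, Arhgef18, Acsf2 and Sp100 made up the rest. No gene stood in both lists.

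Other genes of the pathway were taken from lists of 52 entries, of which 51 were found and 49 tested; a gene standing in a pair of lists was counted in each. In each of the 3 comparisons limma called 0 of the 49, in either direction. Their log2 differences were above 0 for 12 and below 0 for 37 in HFD+L-NAME against chow, 33 and 16 in NO2-OA against HFD+L-NAME, and 9 and 40 in NO2-OA against chow. Of all tested genes, 82.1%, 35.3% and 82.7% were below 0 in these 3 comparisons. The 15 transcription factors that act on class II genes had a median of -0.33 in HFD+L-NAME against chow, near that of all tested genes. Pax5, a B cell factor, averaged 66.9 ± 31.8 TPM in NO2-OA, 63.2 ± 32.3 TPM in HFD+L-NAME and 79.4 ± 36.5 TPM in chow libraries. Irf1, a factor induced by interferon, averaged 76.3 ± 12.3 TPM in NO2-OA, 72.7 ± 45.1 TPM in HFD+L-NAME and 81.1 ± 32.1 TPM in chow libraries. The 9 tested genes of the interferon gamma response, a pathway known to induce Ciita, had medians of -0.29, 0.25 and -0.0061 in the 3 comparisons. Igtp, a GTPase of that pathway, averaged 91.7 ± 65.2 TPM in NO2-OA, 88.8 ± 71.5 TPM in HFD+L-NAME and 68.6 ± 38.9 TPM in chow libraries.

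The 10 genes of antigen and invariant chain processing had medians of 0.073, -0.054 and -0.055 in the same comparisons. Ctss, the protease that cuts the invariant chain in B cells and dendritic cells, averaged 201 ± 76.7 TPM in NO2-OA, 194 ± 90.9 TPM in HFD+L-NAME and 216 ± 94.0 TPM in chow libraries. Cst3, an inhibitor of such proteases, averaged 138 ± 57.2 TPM in NO2-OA, 191 ± 59.3 TPM in HFD+L-NAME and 151 ± 56.3 TPM in chow libraries. The 6 genes of turnover and trafficking had medians of -0.27, 0.049 and -0.20. Cd83, which keeps class II molecules at the surface by opposing Marchf1, averaged 59.1 ± 16.2 TPM in NO2-OA, 72.4 ± 58.0 TPM in HFD+L-NAME and 72.0 ± 41.4 TPM in chow libraries. Ap2m1, an adaptor subunit of endocytosis, averaged 78.3 ± 48.1 TPM in NO2-OA, 96.0 ± 71.2 TPM in HFD+L-NAME and 75.1 ± 44.0 TPM in chow libraries.

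Of the 4 costimulation genes, Cd86 averaged 30.3 ± 8.67 TPM in NO2-OA, 35.2 ± 29.1 TPM in HFD+L-NAME and 34.5 ± 20.7 TPM in chow libraries. Icosl averaged 26.1 ± 11.0 TPM in NO2-OA, 22.3 ± 11.7 TPM in HFD+L-NAME and 32.9 ± 15.6 TPM in chow libraries. On the T cell side, Cd4, which binds class II molecules, averaged 13.3 ± 2.70 TPM in NO2-OA, 10.8 ± 5.16 TPM in HFD+L-NAME and 19.2 ± 8.57 TPM in chow libraries. Its log2 difference was -0.79 ± 0.39 in HFD+L-NAME against chow and did not pass (limma adjusted p = 0.816). Cd28 averaged 17.5 ± 5.86 TPM in NO2-OA, 19.98 ± 10.9 TPM in HFD+L-NAME and 30.6 ± 11.4 TPM in chow libraries. H2-Eb2 had log2 differences of -0.65 ± 0.45, 0.28 ± 0.43 and -0.37 ± 0.43 in the 3 comparisons.

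No tested marker in any cell type list was called in any comparison. The 16 B cell markers had log2 differences below 0 in 16 of 16 cases in HFD+L-NAME against chow (median -0.38), beside 82.1% of all tested genes. They were below 0 in 16 of 16 cases in NO2-OA against chow (median -0.33), beside 82.7% of all tested genes. In NO2-OA against HFD+L-NAME 11 of 16 were above 0, with a median of 0.13, while 35.3% of all tested genes were below 0. Lists of T cells, NK cells, neutrophils and erythroid cells had medians further from 0 than the B cell list in HFD+L-NAME against chow, as did, narrowly, that of platelets (0.39). All 7 T cell markers (median -1.04) and all 5 NK cell markers (median -1.09) were below 0, while all 7 neutrophil markers (median 1.06) and all 4 tested erythroid markers (median 1.15) were above 0. The sum of the B cell markers ran from 877 to 4369 TPM (median 2704) in NO2-OA libraries, 1098 to 4071 TPM (median 2729) in HFD+L-NAME libraries and 958 to 5709 TPM (median 3463) in chow libraries. Sums of the 8 monocyte markers ran from 598 to 2536 TPM in NO2-OA, 1381 to 2542 TPM in HFD+L-NAME and 544 to 2010 TPM in chow libraries. The part of cell composition in the levels of the class II genes was not tested.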

How the data were processed

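RNA was sequenced from PBMCs in 16 libraries (6 HFD+L-NAME+NO2-OA, 5 HFD+L-NAME, 5 chow). The authors deposited TPM values of 51179 genes per library; the submitters' processing notes name bcl2fastq, Trim Galore, HISAT2 and featureCounts and the builds mm39 and hg38, with no versions, and the annotation and strand setting are not given in the sources used here. Names and gene types came from the table and GENCODE, which held 48486 of the identifiers. The TPM were whole multiples of a step, and whole reads were recovered for 100.0% of tested genes (tolerance 0.001; 4940252 to 25477492 per library, a 5.16-fold range). The implied gene lengths lay within 1.5-fold of annotated ones for 90.5% of tested genes. Intervals and limits from reads cover counting error only.

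Genes with at least 1 TPM in at least 5 libraries (16365) were fitted as log2(TPM + 1) with limma 3.58.1 in R 4.3.3 (1 coefficient per group, variance trend, two-sided, Benjamini-Hochberg over all tested genes, threshold 0.05). A log2 difference on this scale understates the change of low genes. Simulated data with known changes were used to test the fit. Ratios were compared by exact permutation tests and relations to markers by 100000 permutations, the smallest p of which is 1e-05, with scipy 1.17.1 and numpy 2.4.6. Tables were handled with pandas 2.3.3 and Python 3.11.15, and plots drawn with matplotlib 3.10.9.

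All 10 members were named, with the 2 genes of highest mean TPM of each pathway list and the 10 genes most like H2-Aa and most like Ciita; gene models called in the whole table and single markers were named after their values were seen. The members and lists were chosen with earlier results of these data known. Of 15 pairs of libraries with the same replicate number, 3 had a correlation over 0.1 once group means were removed (range -0.51 to 0.51), so no pairing was used. Alternatives covered the pseudocount, filter, scaling, model, runs, left-out libraries and limma-voom on recovered reads.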

Additional observations from a re-analysis of the deposited data

Results flagged for a closer look

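The log2 ratio of H2-Eb1 to H2-Aa was 0.63 in NO2-OA replicate 2 and 0.30 to 0.35 in the remaining 5 NO2-OA libraries, a gap wider than Dixon's 95% critical value allows for 6 samples. This library has the lowest protein-coding share of its group, at 15.9% of TPM. The same ratio was 0.73 in HFD+L-NAME replicate 5 and 0.45 in chow replicate 3. Each was the highest of its group, and both libraries are also of low protein-coding share. Chance flags about 1 in 20 groups, and 51 groups of values were examined with 1 flag.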

How the results depend on the processing

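No member was called in any of the 3 comparisons under any of 29 alternatives, 16 of which leave out 1 library; the smallest limma adjusted p of a member was 0.478. The 21 ratio tests were repeated under fewer of them, and the H2-DMb2 to H2-DMb1 ratio in NO2-OA against chow kept its direction in 13 alternatives (-0.23 to -0.16; adjusted exact permutation p 0.0909 to 0.375). The replicate block changed 1 direction, H2-Eb1 in NO2-OA against HFD+L-NAME (-0.0012), and no count of calls. Directions of single members otherwise depended on which libraries were used and on scaling, and the cause was not tested. The spread between libraries, more than read number, limits these values: no member had fewer than 121 reads in a library.

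In HFD+L-NAME against chow, log2 differences turned above 0 in run 1 alone, and identically without the 4 libraries that carry macrophage genes, to 0.10 (H2-Aa), 0.24 (H2-Ab1), 0.16 (H2-Eb1), 0.25 (Cd74), 0.23 (H2-DMa), 0.28 (H2-DMb1), 0.22 (H2-DMb2), 0.36 (H2-Oa) and 0.17 (H2-Ob). With median-of-ratios scaling Cd74 was at 0.037. In NO2-OA against chow they turned to 0.26 (H2-Aa), 0.42 (H2-Ab1), 0.19 (H2-Eb1), 0.43 (Cd74), 0.43 (Ciita), 0.37 (H2-DMa), 0.65 (H2-DMb1), 0.46 (H2-DMb2), 0.43 (H2-Oa) and 0.43 (H2-Ob) in run 1 alone. Without the 4 libraries they were 0.060 (H2-Aa), 0.19 (H2-Ab1), 0.037 (H2-Eb1), 0.20 (Cd74), 0.15 (Ciita), 0.18 (H2-DMa), 0.38 (H2-DMb1), 0.20 (H2-DMb2), 0.23 (H2-Oa) and 0.15 (H2-Ob). Median-of-ratios scaling gave 0.021 (Cd74), 0.087 (Ciita), 0.17 (H2-DMb1) and 0.049 (H2-Ob), limma-voom 0.047 and the total without haemoglobin genes 0.063 for H2-DMb1. In run 1 alone the log2 ratios of H2-Eb1 to H2-Aa and of H2-Aa to Cd79a turned to -0.074 and -0.054.

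In NO2-OA against HFD+L-NAME, log2 differences turned below 0 without the 4 libraries, to -0.042 (H2-Aa), -0.050 (H2-Ab1), -0.12 (H2-Eb1), -0.049 (Cd74), -0.050 (H2-DMa), -0.029 (H2-DMb2), -0.13 (H2-Oa) and -0.023 (H2-Ob). Median-of-ratios scaling gave -0.033 (H2-Aa), -0.0086 (H2-Ab1), -0.14 (H2-Eb1), -0.016 (Cd74), -0.024 (H2-DMa) and -0.033 (H2-Oa), and protein-coding scaling -0.00065 (H2-Aa), -0.11 (H2-Eb1) and -0.0060 (H2-Oa).

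Leaving out 1 library at a time, log2 differences that changed direction in NO2-OA against HFD+L-NAME ran from -0.16 to 0.41 (H2-Aa), -0.099 to 0.43 (H2-Ab1), -0.26 to 0.30 (H2-Eb1), -0.12 to 0.38 (Cd74), -0.12 to 0.39 (H2-DMa), -0.044 to 0.47 (H2-DMb2), -0.12 to 0.35 (H2-Oa) and -0.0092 to 0.59 (H2-Ob). The lowest value came without HFD+L-NAME replicate 3 or replicate 5 for each of these 8 genes. The ratios of Cd74 and of H2-Ab1 to H2-Aa ran from -0.040 to 0.057 and from -0.0045 to 0.063. In NO2-OA against chow the ranges were -0.50 to 0.0086 (Cd74), -0.53 to 0.13 (Ciita), -0.45 to 0.20 (H2-DMb1) and -0.48 to 0.098 (H2-Ob), each highest without NO2-OA replicate 2. The ratios of H2-Eb1 to H2-Aa and H2-Aa to Cd79a ran from -0.044 to 0.026 and from -0.095 to 0.10. In HFD+L-NAME against chow no member turned, with ranges of -0.82 to -0.25 (H2-Aa, lowest without HFD+L-NAME replicate 4), -0.65 to -0.10 (Cd74) and -0.99 to -0.30 (Ciita, both lowest without chow replicate 3). There the ratios of Ciita to H2-Aa, H2-Ob to H2-DMa and H2-DMb2 to H2-DMb1 ran from -0.20 to 0.095, -0.13 to 0.13 and -0.099 to 0.014.

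Counts of called genes over the whole table stayed small. In HFD+L-NAME against chow, 1 gene was called down. The count was 0 with no filter, with median-of-ratios or protein-coding scaling, without the variance trend, without the 3 libraries of low protein-coding share and with limma-voom. It was 4 with the 2 groups alone, 2 in run 1 alone or without the 4 libraries, and 0 to 2 leaving out 1 library. In NO2-OA against HFD+L-NAME, 1 gene was called up. The count was 0 under the same settings that gave 0 before, 2 with a pseudocount of 0.1, with run as a covariate or without the 4 libraries, 3 in run 1 alone, and 0 to 4 leaving out 1 library. With no filter 1 gene was called down. In NO2-OA against chow 1 gene was called up in run 1 alone, and 0 to 1 leaving out 1 library.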
